A study of Mus musculus with 4 samples.

Results

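Genes that build fatty acids, burn them and assemble them into phospholipids and sphingolipids were followed in mouse embryonic fibroblasts after knockdown of eIF1A, a translation initiation factor needed for start codon scanning by the ribosome. Members were taken by gene symbol from the table of normalised counts, through a fixed pattern of family names (Acad, Acsl, Agpat, Elovl, Fads, Pex and others). The pattern matched 65 of the 4878 genes in the table. Gpatch4 and Gpatch8 were matched by their letters alone and encode G-patch proteins, so 63 lipid members remain, and all 63 had a mean value high enough to be tested. They were sorted by role into a synthesis arm of 13 genes (5 for de novo synthesis, 8 for elongation and desaturation), an oxidation arm of 13, and 37 others. A list of 171 names that the pattern could match for mouse held 65 in the table, so each role is covered only in part, and Acacb and Hadha were not analysed here.

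The knockdown group was 2 libraries of primary mouse embryonic fibroblasts transfected with siRNA against eIF1A, and the control group was 2 libraries of the same kind of cells transfected with the negative control siRNA. Both groups shared the same transfection reagent, Lipofectamine RNAimax, and the cells were at passages 5 to 8. RNA was measured by bulk MARS-seq, which sequences the 3′ ends of polyadenylated RNA. No label states that the libraries within a group were separate cultures. The p-values therefore reflect variation among these 4 libraries, part of which may be technical.

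Reads were recovered from the normalised values by taking the smallest value of each library as 1 read. Over the genes of the table only, they came to 2152331 and 2352111 in the knockdowns, against 2182825 and 2595625 in the controls. Normalised totals were 1737438 and 1597709 in the knockdowns, against 2148302 and 2106582 in the controls, so the authors' scaling left the knockdowns lower in sum. Eif1a and Eif1ax were not analysed here, so the knockdown itself could not be checked on its target. None of 22 markers of adipocytes, epithelium, endothelium and leukocytes was in the table, and 3 of 11 fibroblast markers were. No gene in the table had a value of 0 in any library, and most fibroblast markers were missing too. Absence from the table therefore does not show which cell types were present. Vim, a fibroblast intermediate filament gene, had 8437 and 10504 normalised counts in the knockdowns, against 20136 and 15531 in the controls. S100a4 had 104 and 101 in the knockdowns, against 680.1 and 689 in the controls, and Fn1 overlapped between the groups.

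Fatty acids are made in the cytosol from acetyl-CoA. Acly cuts citrate exported from mitochondria into acetyl-CoA, Acss2 makes acetyl-CoA from acetate, Acaca turns it into malonyl-CoA, and Fasn joins the units into palmitate. Elongases and desaturases then lengthen the chain and add double bonds. For oxidation, long-chain acyl groups pass the mitochondrial membranes through Cpt1 and Cpt2 and are shortened by acyl-CoA dehydrogenases, hydratases and thiolases. Malonyl-CoA inhibits Cpt1, so that in many tissues synthesis and oxidation are used at different times. Synthesis genes are classical targets of Srebf1, and oxidation genes of the PPAR receptors.

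The upstream sequences of the member with the smallest p in each arm that has one in the table of promoters (Acss2 and Ech1) and of the enzyme at the gate of each arm (Acly and Cpt1a) are shown, because both arms fell. Each is the 250 bases before the RefSeq start in GRCm38.p6, written 5′ to 3′ on the strand of the gene. They lie at chr2:155517793-155518042 on the plus strand for Acss2, chr11:100528001-100528250 on the minus strand for Acly, chr7:28825088-28825337 on the plus strand for Ech1 and chr19:3323051-3323300 on the plus strand for Cpt1a. In GENCODE the Cpt1a gene starts earlier, at chr19:3322334, so its window lies inside that gene. The Acss2 and Ech1 windows also run past the GENCODE starts, at chr2:155517948 and chr7:28825217. Capitals mark the motif letters CCAAT, the core bound by NF-Y, and GGGCGG, a GC box, on either strand. The GC box was added to the search after these sequences had been read.
Acss2: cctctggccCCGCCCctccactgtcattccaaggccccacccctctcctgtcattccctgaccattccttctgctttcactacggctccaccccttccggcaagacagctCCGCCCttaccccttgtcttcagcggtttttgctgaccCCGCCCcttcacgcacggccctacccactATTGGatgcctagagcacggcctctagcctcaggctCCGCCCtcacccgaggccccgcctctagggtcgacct
Acly: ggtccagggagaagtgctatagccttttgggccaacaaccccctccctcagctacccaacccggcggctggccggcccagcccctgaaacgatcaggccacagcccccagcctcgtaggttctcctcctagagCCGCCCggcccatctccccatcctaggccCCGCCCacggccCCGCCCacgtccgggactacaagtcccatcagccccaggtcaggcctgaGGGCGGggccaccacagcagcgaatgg
Ech1: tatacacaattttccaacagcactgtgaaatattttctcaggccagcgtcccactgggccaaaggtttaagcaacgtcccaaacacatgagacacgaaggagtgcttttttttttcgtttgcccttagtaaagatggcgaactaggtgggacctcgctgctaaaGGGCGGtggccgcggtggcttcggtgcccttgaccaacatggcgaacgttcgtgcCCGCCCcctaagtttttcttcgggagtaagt
Cpt1a: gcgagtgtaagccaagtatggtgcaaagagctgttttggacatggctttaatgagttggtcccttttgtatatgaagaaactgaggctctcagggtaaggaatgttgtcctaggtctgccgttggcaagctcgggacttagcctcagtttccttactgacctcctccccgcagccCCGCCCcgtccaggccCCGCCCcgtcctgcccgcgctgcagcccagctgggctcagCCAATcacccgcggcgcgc

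The Acss2 window held 1 CCAAT core, whose first base lay 73 bases before the RefSeq start, and 4 GC boxes. Acly held 4 GC boxes and no CCAAT, and Ech1 held 2 GC boxes and no CCAAT. Cpt1a held 2 GC boxes and a CCAAT 19 bases before its RefSeq start. RefSeq windows were matched for 50 of the 63 lipid members, which have 66 windows between them. CCAAT stood in 40.9% of these windows and in 33.8% of all 32851 windows. GGGCGG stood in 65.2% of the member windows and in 32.7% of all windows. It stood in 6 of 11 windows of the synthesis arm (54.5%) and 9 of 11 of the oxidation arm (81.8%). For every motif, all windows include those of genes outside the table of counts. The shares therefore do not compare members with other measured genes, for which no share was computed. The sterol response element, searched as TCACNCCAC, was matched in 3 of 66 member windows (4.55%) and in 1.05% of all. The 3 windows belong to Acsl1 and Pcyt1a alone, and neither gene passed the test described below. None of the 11 windows of either arm held a match. The direct repeat bound by PPAR and RXR had no exact match in a member window and was found in 0.0335% of all. Also searched were TGATGNAA (6.06% of member windows, 3.45% of all) and CACGTG (7.58% of member windows, 6.02% of all). A match describes letters in a window and shows neither binding nor a cause.

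Both arms of fatty acid metabolism fell in the eIF1A knockdown libraries. In the synthesis arm 8 of 13 members fell and none rose, and in the oxidation arm 10 of 13 fell and none rose. These counts include Fads3, which acts on sphingoid bases, and Cpt1c, found mainly in brain endoplasmic reticulum. A member counts as having risen or fallen where limma's test on log2(value + 1), adjusted by Benjamini-Hochberg over all 4605 genes tested, gave a p under 0.05. Of all genes tested, 21.6% fell and 15.9% rose. Of the 63 lipid members 27 fell (42.9%), 5 rose (7.94%) and 31 did not pass. The median log2 fold change, knockdown over control, was -1.08 in the synthesis arm and -1.22 in the oxidation arm, against -0.80 over the 63 members and -0.01 over all genes tested. With libraries scaled to equal totals the median of all genes moved to 0.34, and the arms stood at -0.73 and -0.88 with 6 and 8 members lower.

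In bulk RNA, fewer cells of a type and less RNA per cell cannot be told apart. The members that fell had transcripts of median GC content 52.8%, those that rose 47.6% and those that did not pass 49.1%, against 50.9% over all genes tested. With the trend on GC content removed, 25 members fell and 3 rose, and the arm medians were -1.02 and -1.17. The count of members that rose was small. It was lower when any single library was left out, in fits that also have fewer samples.

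**Figure D1:**
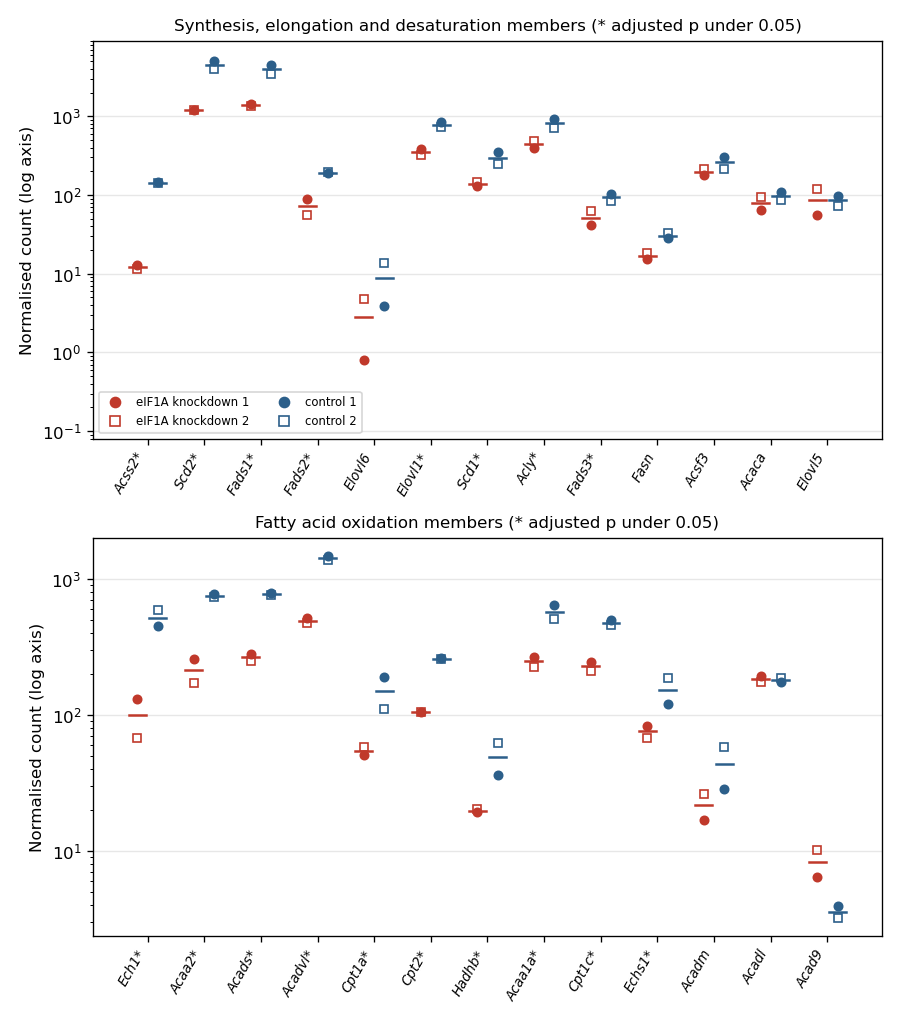
Normalised counts (log axis) of the 13 synthesis members (top) and 13 oxidation members (bottom) in each library, eIF1A knockdown left of control for each gene, with bars at the mean of 2 libraries. For Acss2, Scd2, Ech1 and Acadvl both knockdown libraries lie below both controls, while Acadl and Elovl5 overlap.

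At the head of the synthesis arm, both enzymes that supply cytosolic acetyl-CoA fell. Acss2 (GENCODE gene at chr2:155517948-155585724, plus strand, mm10) had 12.9 and 11.5 normalised counts in the knockdowns, against 145 and 142 in the controls. The groups were far apart and the libraries within each nearly equal. Its log2 fold change was -3.45 (SE 0.34, adjusted p 3.14e-07), a 10.9-fold lower level and the furthest fall among the 63 members. Acly had 399 and 485 normalised counts in the knockdowns, against 915 and 714 in the controls, with no overlap. Its log2 fold change was -0.88 (SE 0.22, adjusted p 0.00407), and the call ended at equal library totals (adjusted p 0.0513), with quantile normalisation (0.0530) and without the variance trend (0.0555).

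The enzymes that carbon from acetyl-CoA meets next did not pass the test. Fasn, fatty acid synthase, had 15.3 and 18.3 normalised counts in the knockdowns, against 28.5 and 32.5 in the controls. Its groups did not overlap, and its log2 fold change was -0.82 (SE 0.43, adjusted p 0.141, and 0.0490 with quantile normalisation). Acaca, the cytosolic acetyl-CoA carboxylase, had 63.8 and 95.1 in the knockdowns, against 109 and 85.2 in the controls, which overlap (log2 fold change -0.31, SE 0.30, adjusted p 0.453). Acaca changed sign, to 0.04, at equal library totals. Acsf3, which makes malonyl-CoA inside mitochondria, had a log2 fold change of -0.38 (SE 0.24, adjusted p 0.235). These standard errors leave room for falls as large as that of Acly.

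All 5 Scd and Fads desaturases in the table fell. Degs1, a desaturase of sphingolipids outside the name pattern, did not pass (log2 fold change 0.15, adjusted p 0.655). Scd2, a stearoyl-CoA desaturase that puts the first double bond into saturated chains, had 1198 and 1196 normalised counts in the knockdowns, against 5053 and 4029 in the controls. Fads1, the delta-5 desaturase of polyunsaturated fatty acids, had 1418 and 1358 in the knockdowns, against 4533 and 3448 in the controls. For both genes the knockdown libraries were nearly equal and lay well below the controls. The log2 fold changes were -1.91 for Scd2 (SE 0.22, adjusted p 1.84e-06) and -1.51 for Fads1 (SE 0.22, adjusted p 3.28e-05).

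Fads2, the delta-6 desaturase that acts before Fads1, had 88.0 and 55.7 normalised counts in the knockdowns, against 191 and 193 in the controls (log2 fold change -1.44, SE 0.28, adjusted p 0.000471). Scd1 had 131 and 147 in the knockdowns, against 351 and 247.5 in the controls (log2 fold change -1.08, SE 0.25, adjusted p 0.0019). Neither gene overlapped between groups. Fads3, a relative of Fads1 and Fads2 that acts on sphingoid bases, also fell (log2 fold change -0.86, SE 0.31, adjusted p 0.0369). That call was lost without knockdown 1 (adjusted p 0.310), without control 1 (0.153), with edgeR (0.0552) and with DESeq2 (0.0943).

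Of the 3 elongases 1 fell. Elovl1, which lengthens saturated and monounsaturated chains to very long ones, had 387 and 319.9 normalised counts in the knockdowns, against 844 and 722 in the controls (log2 fold change -1.15, SE 0.22, adjusted p 0.000382). Both knockdown libraries lay below both controls. Elovl6, which extends palmitate to stearate, had few reads, 1 and 7 in the knockdowns, against 4 and 17 in the controls. Summed over libraries, the control level was 3.17 times that of the knockdowns, with a 95% counting interval of 1.35 to 8.26. Its adjusted p was 0.23, and 0.0444 without control 1. Elovl5, the elongase of polyunsaturated chains, had 56.5 and 118 in the knockdowns, against 98.4 and 73.0 in the controls (adjusted p 0.923), and both libraries of the knockdown bracketed the controls.

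Genes that supply or assist synthesis, outside the name pattern, were taken from a list of 14, of which 11 were tested. Of these 6 were lower (54.5%) and 2 higher (18.2%), against 21.6% and 15.9% over all genes, with a median of -0.87. The 6 include Acat2 and Aacs, which also serve or feed sterol synthesis, so the count is not one of fatty acid synthesis alone. Slc25a1, the carrier that exports citrate from mitochondria for Acly, had 487 and 486 normalised counts in the knockdowns, against 1956 and 1950.2 in the controls. Acat2, a cytosolic thiolase that joins acetyl-CoA for sterol synthesis, had 192 and 194 in the knockdowns, against 746 and 749.9 in the controls. Each gene had nearly the same value within a group and no overlap between groups. The log2 fold changes were -2.00 for Slc25a1 (SE 0.21, adjusted p 5.1e-07) and -1.95 for Acat2 (SE 0.21, adjusted p 1.13e-06). With the GC trend removed Slc25a1 was 2.53-fold lower and still called. Mid1ip1, a partner of acetyl-CoA carboxylase, went the other way, with 351 and 347 normalised counts in the knockdowns, against 96.5 and 162 in the controls. Both knockdown libraries lay above both controls (log2 fold change 1.48, SE 0.26, adjusted p 0.000197). Hacd3, a dehydratase of the elongation cycle, also rose, and its call (adjusted p 0.0327) was lost without knockdown 1 (0.0964), knockdown 2 (0.157) or control 2 (0.205).

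In the oxidation arm, all 3 carnitine palmitoyltransferases in the table fell. Cpt1a, the malonyl-CoA-sensitive palmitoyltransferase of the outer membrane, had 50.9 and 58.4 normalised counts in the knockdowns, against 188 and 111 in the controls. Cpt2, which hands the acyl group back to CoA in the matrix, had 104 and 105 in the knockdowns, against 262 and 255 in the controls. Knockdown libraries lay below controls for both, and control 1 was the higher control for Cpt1a. The log2 fold changes were -1.39 for Cpt1a (SE 0.30, adjusted p 0.00132) and -1.29 for Cpt2 (SE 0.24, adjusted p 0.000335). Cpt1c, a relative found mainly in brain endoplasmic reticulum, fell 2.10-fold (adjusted p 0.000873). Slc25a20, the carnitine-acylcarnitine exchanger between Cpt1 and Cpt2, had 118 and 112 in the knockdowns, against 146 and 221 in the controls, and did not pass (log2 fold change -0.64, SE 0.26, adjusted p 0.0652, and 0.00968 without control 1).

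Among acyl-CoA dehydrogenases, which take the first electrons from the chain, the members for very long and short chains fell. Acadvl had 516 and 468 normalised counts in the knockdowns, against 1452 and 1361 in the controls. Acads had 280.1 and 247 in the knockdowns, against 788 and 762 in the controls. Neither gene overlapped, and libraries within a group lay close. The log2 fold changes were -1.51 for Acadvl (SE 0.21, adjusted p 1.56e-05) and -1.55 for Acads (SE 0.21, adjusted p 1.57e-05). With the GC trend removed Acads fell 1.80-fold (adjusted p 0.00777) instead of 2.94-fold.

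Medium- and long-chain dehydrogenases did not pass. Acadm had 17.0 and 26.5 normalised counts in the knockdowns, against 28.5 and 58.4 in the controls (log2 fold change -0.92, SE 0.43, adjusted p 0.103, and 0.0131 without control 1). Acadl had 192 and 175 in the knockdowns, against 175 and 186 in the controls, with overlapping groups (log2 fold change 0.02, SE 0.24, adjusted p 0.958). The sign of Acadl was not stable, at -0.39 with the GC trend removed, -0.05 without knockdown 1 and -0.02 without control 1. Acad9, best known for assembly of respiratory complex I, had 6.46 and 10.2 in the knockdowns, against 3.94 and 3.25 in the controls (adjusted p 0.315). Acadsb, which acts on branched chains from isoleucine, had 9 and 1 reads in the knockdowns, against 10 and 10 in the controls, and did not pass (adjusted p 0.201).

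The 5 members that act after the dehydrogenases, Ech1, Acaa2, Acaa1a, Echs1 and Hadhb, fell. Ech1, an isomerase for unsaturated chains (chr7:28825217-28832247, plus strand, mm10), had 131 and 67.2 normalised counts in the knockdowns, against 448 and 585 in the controls. Acaa2, the mitochondrial thiolase that releases acetyl-CoA, had 257.5 and 171 in the knockdowns, against 775 and 726 in the controls. For both, knockdown 1 was the higher knockdown library and still lay far below the controls. The log2 fold changes were -2.44 for Ech1 (SE 0.28, adjusted p 2.2e-06) and -1.83 for Acaa2 (SE 0.23, adjusted p 7.35e-06). Acaa1a, a peroxisomal thiolase, fell 2.30-fold (adjusted p 0.000365).

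Echs1, the short-chain hydratase, had 83.1 and 67.9 normalised counts in the knockdowns, against 121 and 185 in the controls (log2 fold change -0.98, SE 0.28, adjusted p 0.0104). Hadhb, the thiolase subunit of the trifunctional protein, had 19.4 and 20.4 in the knockdowns, against 36.4 and 62.5 in the controls (log2 fold change -1.22, SE 0.40, adjusted p 0.0215). Neither gene overlapped, and control 2 was the higher control for both. The Echs1 call was lost without knockdown 2 (adjusted p 0.0794) and without control 2 (0.105). The Hadhb call was lost without knockdown 1 (0.0730), knockdown 2 (0.0576) or control 2 (0.189), and both were lost at equal library totals (0.0793 for Echs1 and 0.0923 for Hadhb).

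Of 25 other oxidation genes listed, 14 were tested, with 4 lower, none higher and a median of -0.45. The 4 were 28.6%, near the 21.6% of all genes tested that fell. Ivd, the isovaleryl-CoA dehydrogenase of leucine breakdown, had 118 and 126 normalised counts in the knockdowns, against 291 and 379 in the controls. It was lower in each knockdown library than in either control, with a log2 fold change of -1.44 (SE 0.24, adjusted p 0.000122). Eci2 and Decr2, auxiliary enzymes for unsaturated chains, also fell, and the Eci2 call was lost without knockdown 2 (adjusted p 0.0594). Other enzymes of later steps did not pass, among them peroxisomal Hsd17b4 (log2 fold change 0.07, adjusted p 0.869), mitochondrial Hsd17b10 (-0.47, adjusted p 0.259) and the isomerase Eci1 (0.42, adjusted p 0.204). Eci1 was called higher at equal library totals (0.00419), with quantile normalisation (0.0247) and without control 2 (0.00483). Hsd17b10 was called lower without knockdown 1 (0.00344) and without control 1 (0.0196).

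Set side by side, synthesis and oxidation members moved in the same direction. The median of the synthesis arm lay 0.14 above that of the oxidation arm on the log2 scale, and 0.55 above it without knockdown 1. This difference was not tested. All 13 synthesis members and 11 of 13 oxidation members had negative log2 fold changes, with ranges of -3.45 to -0.05 and -2.44 to 1.00. No member of either arm rose under any alternative processing that was run.

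**Figure D2:**
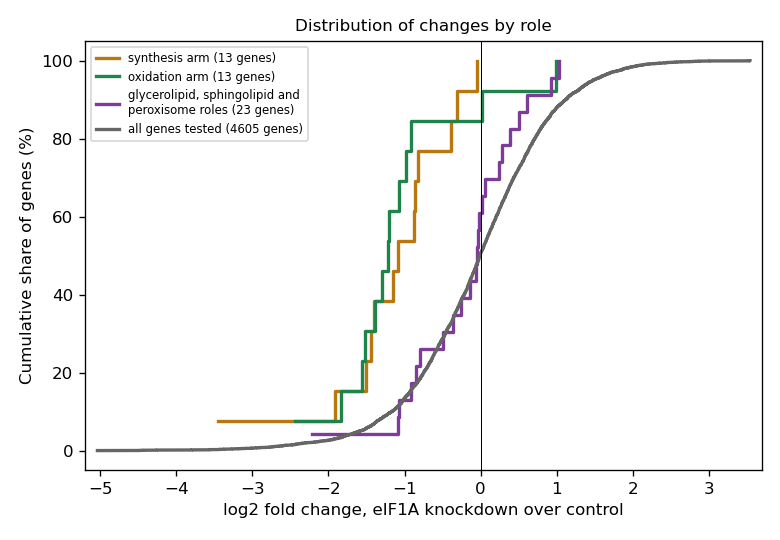
Cumulative share of genes (percent) against log2 fold change, eIF1A knockdown over control, for the synthesis arm, the oxidation arm, the glycerolipid, sphingolipid and peroxisome roles together, and all genes tested. The curves of both arms lie left of that of all genes, with medians of -1.08 and -1.22 against -0.01. The curve of the glycerolipid, sphingolipid and peroxisome roles lies near that of all genes. Roles without a curve include remodelling enzymes and lipases (median -0.51) and activation and release of acyl-CoA (median 0.54).

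Regulators of these pathways were taken from a list of 23, of which 9 were tested, with 5 lower and 1 higher and a median of -0.71. The shares were 55.6% lower and 11.1% higher, against 21.6% and 15.9% over all genes tested. With the GC trend removed 1 was lower and 2 were higher. The gene that rose, Prkab1, a subunit of AMP-activated kinase, had an adjusted p of 0.0454 and was not called when any single library was left out. Srebf1, the transcription factor of fatty acid synthesis genes, had 362 and 403 normalised counts in the knockdowns, against 827 and 830.3 in the controls. Nr1h2, the LXR-beta receptor that induces Srebf1, had 523 and 425 in the knockdowns, against 1386 and 962 in the controls. Both were lower in each knockdown library. Srebf1 changed by -1.11 on the log2 scale (SE 0.21, adjusted p 0.000375) and Nr1h2 by -1.29 (SE 0.23, adjusted p 0.000211). With the GC trend removed neither passed, at adjusted p 0.0782 for Srebf1 and 0.0710 for Nr1h2. Insig1, which holds SREBP proteins back in the endoplasmic reticulum and is itself an SREBP target, had 4.04 and 9.51 in the knockdowns, against 6.89 and 17.0 in the controls, with overlap (adjusted p 0.439). Srebf2, Ppara and Ppargc1a were not analysed here.

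Uptake and storage genes fell in 6 of 7 cases tested from a list of 20, with a median of -1.51. That is 85.7%, against 21.6% of all genes tested. Slc27a1, a fatty acid transport protein with acyl-CoA synthetase activity, had 16.1 and 41.4 normalised counts in the knockdowns, against 198 and 104 in the controls. Plin3, a lipid droplet coat protein, had 569.9 and 444 in the knockdowns, against 1443 and 1427 in the controls. All knockdown libraries lay below all controls for both genes. Log2 fold changes of -2.42 for Slc27a1 (SE 0.40, adjusted p 0.000109) and -1.51 for Plin3 (SE 0.21, adjusted p 2.17e-05) were obtained. The fall of Slc27a1 was 3.40-fold without knockdown 1 and 8.42-fold without knockdown 2. Among the others, Lipe was lower too, the Slc27a3 call was lost with the GC trend removed (adjusted p 0.133), and the Plin2 call (0.0440) was lost without knockdown 1 (0.246), knockdown 2 (0.103) or control 1 (0.114).

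Activation and release of acyl-CoA were the only role with more members higher than lower, 2 against 0 of 4. Over all genes tested 15.9% were higher and 21.6% lower. Acot9, a mitochondrial thioesterase that frees fatty acids from CoA, had 128 and 91.7 normalised counts in the knockdowns, against 38.4 and 47.1 in the controls. Acsl5, a long-chain acyl-CoA synthetase, had 204 and 170.5 in the knockdowns, against 132 and 93.3 in the controls. Neither overlapped between groups. On the log2 scale the fold change was 1.33 for Acot9 (SE 0.31, adjusted p 0.00224) and 0.74 for Acsl5 (SE 0.26, adjusted p 0.0318). Without knockdown 1 both calls were lost, at adjusted p 0.0576 for Acot9 and 0.212 for Acsl5. The Acsl5 call was also lost without knockdown 2 (0.0604), without control 2 (0.177) and with the GC trend removed (0.213). Acsl1 and Acot13 did not pass.

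**Figure D3:**
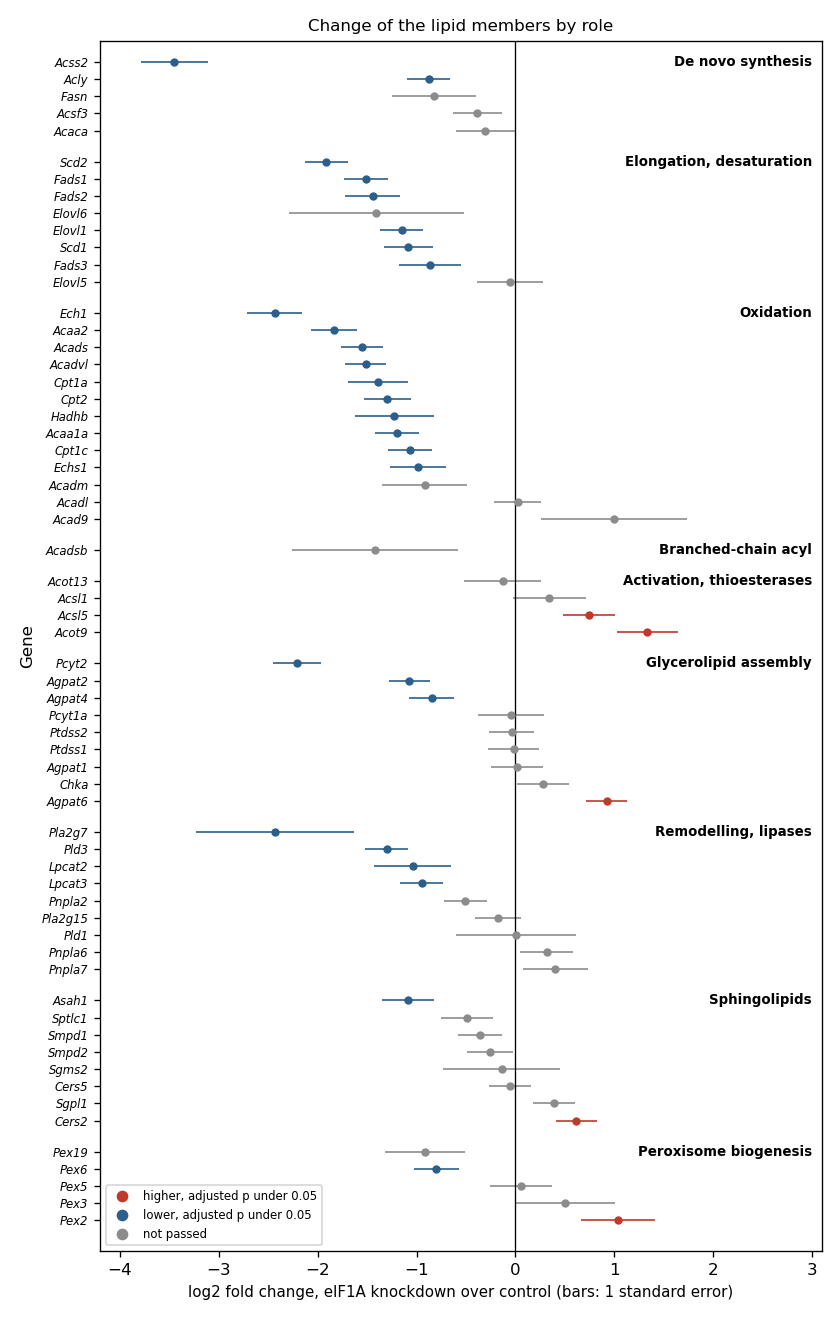
Log2 fold change of the lipid members, 1 of the 63 left out, eIF1A knockdown over control, grouped by role, with bars of 1 standard error and colour for members past an adjusted p of 0.05. Blue points (lower) fill most of the elongation and desaturation role and of the oxidation role, and are 2 of 5 in de novo synthesis. The 5 red points (higher) are Acot9, Acsl5, Agpat6, Cers2 and Pex2.

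Phospholipids are built from glycerol 3-phosphate by stepwise acylation to phosphatidic acid, after which activated head groups are added by the Kennedy pathway. Of 9 glycerolipid members 3 fell (33.3%), 1 rose (11.1%) and 5 did not pass, against 21.6% lower and 15.9% higher over all genes. The median was -0.04, and with the GC trend removed 1 fell. Pcyt2, the rate-limiting enzyme of phosphatidylethanolamine synthesis through CDP-ethanolamine (chr11:120610087-120617936 in mm10), had 102.5 and 78.8 normalised counts in the knockdowns, against 447 and 394 in the controls. Its groups were far apart, with a log2 fold change of -2.21 (SE 0.24, adjusted p 1.13e-06). After removal of the GC trend the fall was 2.95-fold instead of 4.63-fold and still called (adjusted p 0.000616). Pcyt1a, its counterpart for phosphatidylcholine, had 42.8 and 61.1 in the knockdowns, against 51.2 and 54.4 in the controls (log2 fold change -0.04, SE 0.33, adjusted p 0.935). The difference between these genes was not itself tested.

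The acyltransferases of phosphatidic acid synthesis went in different directions. Agpat6, an older name of the endoplasmic reticulum enzyme Gpat4 that adds the first acyl chain, had 1069 and 1047 normalised counts in the knockdowns, against 558 and 557.6 in the controls. Agpat2, which adds the second chain, had 705 and 584 in the knockdowns, against 1385 and 1316 in the controls. Agpat6 was higher and Agpat2 lower in every knockdown library. Agpat6 changed by 0.92 on the log2 scale (SE 0.21, adjusted p 0.00167) and Agpat2 by -1.07 (SE 0.21, adjusted p 0.000555).

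After removal of the GC trend Agpat2 was 1.40-fold lower and not called (adjusted p 0.0765). Agpat4, a further acyltransferase of this family, fell 1.80-fold (adjusted p 0.00662), a call lost without control 2 (0.0505), at equal library totals (0.0865) and with the GC trend removed (0.0746). Agpat1, the broadly expressed member, had 101 and 126 normalised counts in the knockdowns, against 111 and 112.0 in the controls (adjusted p 0.979). The exons of Agpat1 and Agpat2 overlap Egfl8 and Egfl7 on the other strand near their 3′ ends, and no source used here states whether counting used strand. Chka, choline kinase, and the phosphatidylserine synthases Ptdss1 and Ptdss2 did not pass.

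Of 30 other phospholipid genes listed, 11 were tested, with 4 higher and 2 lower, against 15.9% higher and 21.6% lower over all genes. At equal library totals 7 were higher and none lower, while calls over all 4605 genes moved as well, to 1300 higher and 603 lower. The median was 0.74, and 0.19 without control 1. The 4 that rose, Pgs1, Ptpmt1, Crls1 and Lclat1, are all enzymes of cardiolipin, the phospholipid of the inner mitochondrial membrane, a grouping made after their values were seen. Crls1, cardiolipin synthase, had 182 and 263 normalised counts in the knockdowns, against 43.3 and 56.8 in the controls. Ptpmt1, the phosphatase of the step before it, had 592 and 527 in the knockdowns, against 234 and 225 in the controls. Both were higher in each knockdown library than in either control. Log2 fold changes of 2.12 for Crls1 (SE 0.28, adjusted p 1.3e-05) and 1.28 for Ptpmt1 (SE 0.22, adjusted p 0.000145) were obtained.

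Pgs1, which commits CDP-diacylglycerol to this branch, was 1.90-fold higher (adjusted p 0.00343). Lclat1, which remodels cardiolipin chains, was 2.59-fold higher (adjusted p 0.0096), a call lost without knockdown 2 (0.208) and with the GC trend removed (0.0625). Cds2, an enzyme that makes CDP-diacylglycerol, had 109 and 105 normalised counts in the knockdowns, against 213 and 212.6 in the controls. It fell by 0.99 on the log2 scale (SE 0.24, adjusted p 0.00362, and 0.0513 at equal library totals). Mboat7, which puts arachidonate into phosphatidylinositol, was the other that fell (adjusted p 0.0352), a call lost without knockdown 2 (0.270) or control 1 (0.219).

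**Figure D4:**
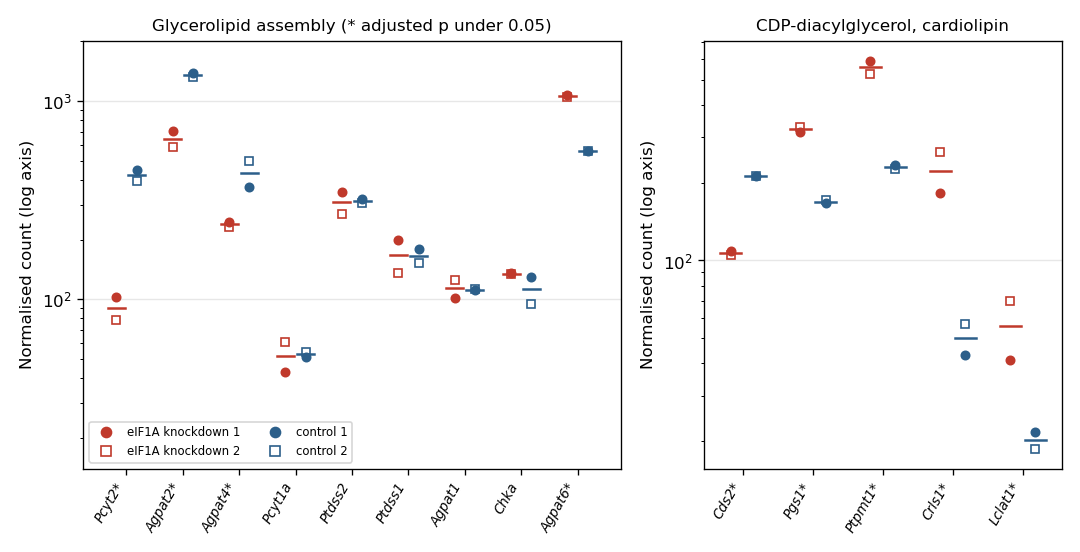
Normalised counts (log axis) of the 9 glycerolipid members (left) and of Cds2 and 4 cardiolipin enzymes (right) in each library, eIF1A knockdown left of control, with bars at the mean of 2 libraries. Pcyt2, Agpat2, Agpat4 and Cds2 lie lower and Agpat6, Pgs1, Ptpmt1, Crls1 and Lclat1 higher in the knockdowns.

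Among 9 remodelling enzymes and lipases, 4 fell (44.4%, against 21.6% of all genes tested), 0 rose and the median was -0.51. With DESeq2 2 fell, and fewer also fell without knockdown 1 or without control 1, where the medians were -0.55 and -0.43. Pld3, which carries a phospholipase D name but is known as a lysosomal exonuclease, had 723 and 755 normalised counts in the knockdowns, against 2053 and 1622 in the controls. Lpcat3, which puts polyunsaturated chains into lysophosphatidylcholine, had 397 and 321 in the knockdowns, against 730.3 and 650.1 in the controls. Knockdown libraries lay below controls for both. On the log2 scale the fold change was -1.30 for Pld3 (SE 0.21, adjusted p 0.000102) and -0.95 for Lpcat3 (SE 0.22, adjusted p 0.00204). After removal of the GC trend Pld3 fell 1.60-fold (adjusted p 0.0203) instead of 2.47-fold.

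Pla2g7, the secreted hydrolase of platelet-activating factor, had 1 and 3 reads in the knockdowns, against 13 and 13 in the controls. Summed over libraries the control level was 7.84 times that of the knockdowns, with a 95% counting interval of 2.72 to 30.9 (limma adjusted p 0.0229). Its fitted fall was 5.39-fold, and 2.60-fold with a pseudocount of 5. The call was lost without knockdown 1, where the fall was 4.16-fold, and without control 1, where it was 4.93-fold. With DESeq2 the fall was 7.81-fold, but no adjusted p was given, so Pla2g7 was not called there. Lpcat2, which makes platelet-activating factor and acylates lysophosphatidylcholine, fell 2.06-fold (adjusted p 0.0416), a call lost without knockdown 1 (0.337), control 1 (0.0545) or control 2 (0.103), with edgeR (0.0647) and with DESeq2 (0.113). Pnpla2, the adipose triglyceride lipase, had 335 and 314 normalised counts in the knockdowns, against 485 and 438 in the controls, and did not pass (log2 fold change -0.51, SE 0.22, adjusted p 0.0713). The other 4 did not pass.

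Sphingolipids are made from serine and palmitoyl-CoA through ceramide. Of 8 members 1 fell and 1 rose, with a median of -0.20, shares below those of all genes. Asah1, the lysosomal acid ceramidase, had 75.9 and 76.1 normalised counts in the knockdowns, against 146 and 182 in the controls. Cers2, the ceramide synthase for very long chains, had 848 and 851 in the knockdowns, against 551 and 559 in the controls. Asah1 was lower and Cers2 higher in both knockdown libraries. Asah1 changed by -1.09 on the log2 scale (SE 0.27, adjusted p 0.00324) and Cers2 by 0.61 (SE 0.21, adjusted p 0.0255). The Cers2 call was lost without knockdown 1 (0.106), knockdown 2 (0.120) or control 1 (0.0574). The other 6 did not pass, among them Sptlc1, a subunit of the first enzyme, which was called lower with the GC trend removed (adjusted p 0.0311), and Sgpl1, the lyase that ends the pathway, which was called higher at equal library totals (0.00469).

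Peroxins import enzymes into peroxisomes, the site of very long-chain oxidation. Of 6 members 1 fell and 1 rose (16.7% each), shares near the 21.6% and 15.9% of all genes, and the median was 0.15. Pex6, an ATPase that recycles the import receptor, had 259 and 280.5 normalised counts in the knockdowns, against 551 and 402 in the controls. Pex2, a ubiquitin ligase of the peroxisomal membrane, had 56.5 and 44.2 in the knockdowns, against 20.7 and 27.6 in the controls. Neither overlapped between groups. Log2 fold changes of -0.80 for Pex6 (SE 0.23, adjusted p 0.00955) and 1.03 for Pex2 (SE 0.37, adjusted p 0.0366) were obtained. After removal of the GC trend Pex6 changed sign to 0.10 and Pex2 was not called (adjusted p 0.247).

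The peroxin calls were also lost when single libraries were left out, in fits that have fewer samples. The Pex6 call was lost without knockdown 1 (log2 fold change -0.74) and without control 1 (-0.57). The Pex2 call was lost without knockdown 1 (log2 fold change 0.86), knockdown 2 (1.21) or control 1 (0.83). Without knockdown 2 the change of Pex2 was no smaller than with all libraries. Pex19, the chaperone of peroxisomal membrane proteins, had 17.0 and 29.9 normalised counts in the knockdowns, against 48.2 and 39.0 in the controls, and did not pass (adjusted p 0.0807, against 0.0262 after GC correction). Pex3 and the receptor Pex5 did not pass.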

How the data were processed

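The authors deposited normalised counts, a signal for 4878 genes in 4 libraries, and no source used here gives the factors. Per the submitters' processing notes, bcl2fastq 2.17.1.14, cutadapt 1.8.3, STAR, HTSeq, DESeq2 and mm10 were used, with no role given. Values were whole multiples of 1 step per library (100% within 0.01 read), so reads could be recovered (2152331 to 2595625 per library), and intervals cover counting error only. No source used here states how molecular identifiers or strand were treated. The main test was limma 3.58.1 (R 4.3.3) with a variance trend on log2(value + 1), on 4605 genes of mean value at least 5, with Benjamini-Hochberg adjustment at 0.05 and no block. A fold change on this scale understates changes of genes with low values. edgeR 4.0.16 and DESeq2 1.42.0 were run on the recovered reads. The fits were also run on simulated counts with a fixed spread and far fewer changed genes than were called here. That run therefore does not check the calls in these data. Symbols were matched to GENCODE M21 on mm10 (4872 of 4878), for coordinates and GC content, and to RefSeq promoters of GRCm38.p6. The alternatives tried included a minimum mean of 20 or no filter, pseudocounts of 0.5 and 5, TMM, equal totals, quantile normalisation, no variance trend, a replicate block, removal of a loess GC trend (span 0.5) and each library left out. Opposite-strand exons overlap the last 1000 bases of 9 lipid members, whose counts are uncertain to that extent: Acadvl, Acsl5, Agpat1, Agpat2, Cers2, Elovl1, Lpcat3, Pcyt1a and Smpd2.

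Values are given in full for up to 4 members of smallest p past the threshold in each role, the member of highest mean, landmark enzymes, and up to 2 genes of each further list. The members and lists were chosen with earlier results of these data known. A few genes that these rules would name are not reported here, and 1 is left out of a figure.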

Additional observations from a re-analysis of the deposited data

How the results depend on the processing

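Counts of members that fell lay between 20 and 30 over all alternatives, against 27. Synthesis members that fell numbered 6 to 8 and oxidation members 8 to 11. The count of members that rose, 5, was 3 without the variance trend, 3 with the GC trend removed and 1 with the GC trend removed together with the replicate block. Leaving out single libraries gave 1 to 4 that rose. At equal library totals the medians were -0.73 for the synthesis arm and -0.88 for the oxidation arm. Leaving out single libraries moved the synthesis median between -0.74 and -1.12, the oxidation median between -1.26 and -1.31, and their difference between 0.14 and 0.55. The log2 fold change of Acaca reversed to 0.043 at equal totals. Acadl reversed to -0.39 and Pex6 to 0.10 with the GC trend removed, with and without the block. Leaving out single libraries moved the log2 fold change of Acadl, at 0.02 with all 4, between -0.047 without knockdown 1 and 0.090 without knockdown 2, and it was -0.021 without control 1. The cause was not tested. Same-numbered libraries did not deviate together (r = -0.13). With 2 libraries a group this cannot show whether the numbers mark shared handling. With the replicate block 25 members fell and 4 rose, and with the numbers crossed, an alternative added after seeing the data, 30 fell and 5 rose. Leaving out 1 library leaves its group with 1 sample, which is assumed to vary like the other group. Such a fit has fewer samples, so a call can be lost while the change stays as large. The log2 fold change of Cers2 was 0.61 with all 4 libraries and 0.62 without knockdown 1, where its call was lost. With 2 libraries a group, changes of members with few reads were detectable only when large.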

Other observations

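Further sphingolipid genes were measured outside the name pattern. Of 21 listed, 11 were tested, with 2 lower (18.2%), 1 higher (9.09%) and a median of -0.02. Over all genes tested 21.6% were lower and 15.9% higher, so neither share exceeded that of all genes. Psap, the precursor of the saposins that assist lysosomal hydrolases, had 418 and 422.5 normalised counts in the knockdowns, against 927 and 718 in the controls. It was lower in each knockdown library, with a log2 fold change of -0.96 (limma, adjusted p 0.00182). Ormdl3, a brake on sphingolipid synthesis, was the gene that rose, with 366 and 368 in the knockdowns, against 225 and 259.7 in the controls (log2 fold change 0.60, adjusted p 0.0398), a call lost without knockdown 1 (0.153), knockdown 2 (0.171) or control 1 (0.136). With knockdown 1 left out 4 genes of the list were lower.

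Gpatch4, matched by its letters and not a lipid gene, had 134 and 134 normalised counts in the knockdowns, against 25.6 and 30.8 in the controls (log2 fold change 2.21, SE 0.31, adjusted p 1.72e-05).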
